A study of Homo sapiens with 26 samples.

Results

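The comparison described here is TP63 knockdown in TE6, an established human cell line of esophageal squamous cell carcinoma (ESCC). Its members are the 4 TE6 libraries labelled siTP63 or siCont, 2 of each, out of 26 libraries in the whole series. The series followed BRDT, a BET protein of germ cells that reads acetylated histones, and the squamous transcription factor p63 in the ESCC lines KYSE180, TE6 and KYSE150 by mRNA-seq. The study describes KYSE180 and TE6 as BRDT-positive and KYSE150 as BRDT-negative. The siTP63 libraries came from TE6 cells transfected with an siRNA against TP63, and the siCont libraries from TE6 cells transfected with a non-targeting siRNA, both for 48 h. The TE6 table also held 2 siBRDT libraries (an siRNA against BRDT), which entered the same fit and are used below only as a second knockdown. The labels give no genetic change other than the siRNA, TE6 is 1 cell line, and nothing in the sources used here says that libraries of the same group came from separate cultures. The p-values therefore measure the spread between these libraries, which may be technical.

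Depth was 12874098 and 13053642 reads in the siCont libraries and 17331345 and 7582089 in the siTP63 libraries, counted over genes, so that 1 read was worth 0.663 to 1.48 normalised reads. Between replicates Pearson's r over genes was 0.993 for siCont and 0.992 for siTP63. The control libraries carried the squamous genes that the label leads one to look for, with KRT5 at 15986 and 15149.6 and TP63 at 2596 and 2785, while the leukocyte gene PTPRC and the endothelial gene CDH5 had no read in any of the 4 libraries.

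p63 is a member of the p53 family that binds DNA as a tetramer and keeps stratified epithelia, such as the esophageal lining and the epidermis, in their basal state. It is known for maintaining the keratins KRT5 and KRT14 and the adhesion genes of basal cells, and the isoform without the N-terminal transactivation domain, ΔNp63, is the usual form in squamous carcinoma. An siRNA guides the silencing complex to a matching stretch of an mRNA, so the sequences below define the treatment. Sense strands of both TP63 siRNAs that the study lists and of its non-targeting siRNA, each of 19 bases, were matched to annotated transcripts and are shown 5′ to 3′ to mark where TP63 mRNA is targeted.
TP63 siRNA #5: caucaugucuggacuauuu
TP63 siRNA #8: cgacagucuuguacaauuu
Non-targeting siRNA #5: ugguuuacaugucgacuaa
TP63 siRNA #5 lay at chr3:189890812-189890830 (hg38, plus strand), in the coding sequence of 5 of 12 annotated protein-coding TP63 transcripts. TP63 siRNA #8 lay at chr3:189867849-189867867, in the coding sequence of 11 of the 12. Neither matched a transcript of another gene without mismatches, and the non-targeting siRNA matched no transcript. Which of the TP63 siRNAs was used for these libraries is not given in the sources used here.

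TP63 itself fell in both siTP63 libraries. Its normalised read count, the deposited gene count divided by a size factor for each library, was 2596 and 2785 in the siCont libraries and 133 and 112 in the siTP63 libraries. Both siTP63 libraries were far below both controls. The log2 fold change was -4.45 ± 0.12 (SE) with an adjusted p of 1.3e-10 by limma, the test used throughout this comparison. TP63 lies at chr3:189631389-189897276 (hg38). Of the relatives of TP63, TP73 fell as well, from 290.1 and 271 to 125 and 99.1 (log2 fold change -1.32, adjusted p = 3.0e-05 by limma). Among 22 p53 family genes and shared p53 targets, 11 fell and 3 rose, beside 20.6% and 18.3% of all genes tested. The 11 include TP63, the target of the siRNA. The p53 targets TP53I3, an oxidoreductase, and BBC3, a pro-apoptotic BH3 protein, were among those that rose (1.65 and 1.52), and RRM2B, a ribonucleotide reductase subunit, was among those that fell (-1.10). The falls numbered 7 without siCont replicate 1, without siCont replicate 2 or without siTP63 replicate 1. BRDT did not pass the test, at 241 and 242 in siCont and 233 and 220.5 in siTP63, and neither did the other BET genes BRD2 (log2 fold change -0.08) and BRD3 (-0.19).

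Of 26485 gene symbols in the table, 13333 had a mean of at least 10 over the 6 TE6 libraries and were tested. A gene was called when its Benjamini-Hochberg adjusted p was under 0.05 and its log2 fold change, siTP63 minus siCont on log2(value + 1), was at least 0.5 in size. By that rule 2742 genes fell, 20.6% of those tested, and 2442 rose, 18.3%. These shares are the background for the counts of gene groups given below. The median size of change was 0.90 among genes that fell and 0.88 among genes that rose, on the log2 scale. A log2 change of at least 2 was reached by 142 genes that fell and 155 that rose. In each of the 5184 called genes the siTP63 values lay wholly above or wholly below the siCont values. That separation alone was common, as it held for 80.5% of all genes tested. Genes that fell had longer transcripts and less GC (medians 4843.5 bases and 43.0%) than genes that rose (2955 bases and 54.0%), against 3813 bases and 48.1% over all tested genes with an annotated transcript. With a trend on length and GC content removed from each library, 3788 of the 5184 calls (73.1%) remained and 3 genes took the opposite sign. That fit held only genes with an annotated transcript, 2704 of those that fell and 2384 of those that rose. Called genes outside it count here as not remaining.

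**Figure D1:**
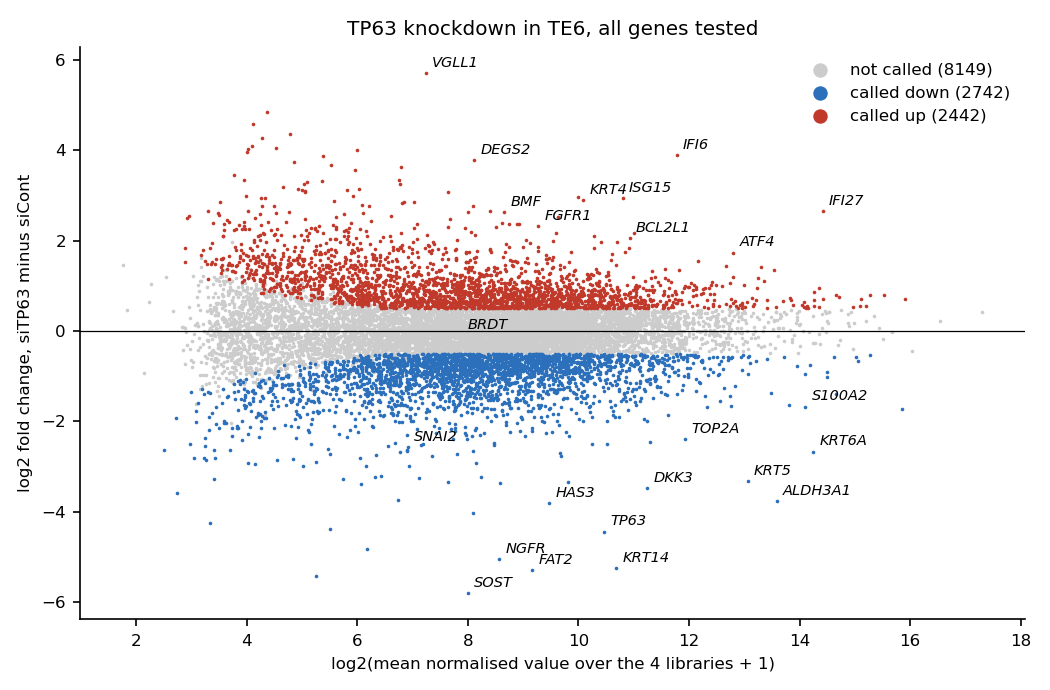
Each point is 1 of the 13333 genes tested in TE6, with its mean level over the 4 libraries on the x axis (log2 of the normalised value + 1) and its log2 fold change, siTP63 minus siCont, on the y axis. Blue points are the 2742 genes called down and red points the 2442 called up, with TP63 at -4.45 and VGLL1 at 5.71.

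Among called genes with a mean of at least 100 over the 4 libraries, the 10 largest falls were TP63 itself and the 9 genes described here. SOST, a secreted Wnt antagonist, went from 541 and 463 to 10.6 and 5.92 (-5.80 ± 0.26, SE). FAT2, a giant protocadherin of squamous epithelia, went from 1145 and 1085 to 29.9 and 25.2 (-5.30 ± 0.16), and the basal keratin gene KRT14 from 3320.3 and 3109.5 to 77.6 and 88.8 (-5.26 ± 0.12). All 3 genes were well expressed in the controls, and their groups did not overlap, as in every called gene. SOST lies at chr17:43753738-43758791, FAT2 at chr5:151504092-151591331 and KRT14 at chr17:41582279-41586895 (hg38). NGFR, the low-affinity neurotrophin receptor that marks basal cells, went from 738 and 735 to 17.9 and 25.2 (-5.05). HAS3, a hyaluronan synthase, went from 1262 and 1390.2 to 116 and 75.5 (-3.81), and ALDH3A1, a detoxifying aldehyde dehydrogenase, from 24467 and 21370.3 to 1658 and 1693 (-3.77). ALDH3A1 was the most abundant gene among these falls. The others were PI15 (-4.02), a secreted protease inhibitor whose siTP63 values of 19.9 and 45.9 differed more than 2-fold, TPRG1 (-3.74), the neighbour of TP63 on chromosome 3, and DKK3 (-3.49), a secreted protein of the Dickkopf family. Adjusted p-values of these genes ran from 2.5e-11 for KRT14 to 2.2e-05 for PI15 by limma.

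The largest rise by the same rule was that of VGLL1 (chrX:136532215-136556807), a cofactor of the TEAD transcription factors. It was at 3.52 and 6.03 with siCont and at 280.0 and 311 with siTP63 (5.71 ± 0.28, SE, adjusted p = 2.9e-08 by limma). The controls held only 4 and 7 reads of VGLL1, so its fold change depends on the pseudocount of 1. IFI6, an interferon-induced mitochondrial protein gene, went from 501 and 381 to 7099 and 6036 (3.90). DEGS2, a sphingolipid hydroxylase, went from 44.8 and 29.3 to 465 and 567 (3.79), and AQP4, a water channel, from 13.2 and 18.1 to 198 and 210.1 (3.64). The groups did not overlap in these genes, as in every called gene. PRR15L (3.35), the adrenomedullin-family peptide gene ADM2 (3.27), KRCC1 (3.08), the AP-1 dimerisation partner JDP2 (2.97), the ubiquitin-like modifier ISG15 (2.95) and the suprabasal keratin gene KRT4 (2.90) completed the 10 largest. Of these 20 genes, 14 overlap another annotated gene on the opposite strand. The overlap is of whole gene spans, introns included. Whether reads were counted by strand is not given in the sources used here, so reads in shared exons may not be told apart.

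**Figure D2:**
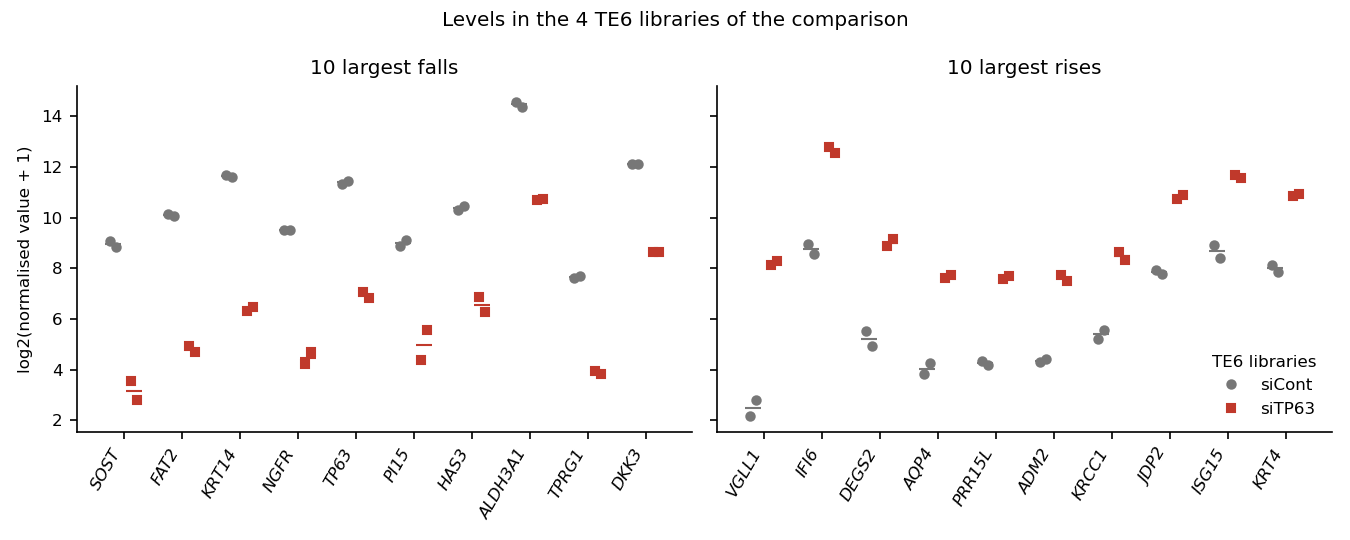
Levels of the 10 genes with the largest falls (left) and rises (right) in the 4 TE6 libraries, as log2 of the normalised value + 1 on the y axis. Grey circles are siCont libraries, red squares siTP63 libraries and short lines group means (n = 2 each). The genes were chosen among those whose groups do not overlap.

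Keratins are the intermediate filaments of epithelia, and basal, suprabasal and simple epithelial cells use different pairs. Of 12 stratified epithelial keratins tested, 9 fell and 2 rose, with a median log2 fold change of -1.65 against -0.01 over all genes. KRT5, the partner of KRT14, fell from 15986 and 15149.6 to 1513 and 1604 (-3.32). The stress keratin KRT6A fell from 33627 and 33525 to 5086 and 5472 (-2.67), and the basal and progenitor keratin KRT15 from 17273 and 15752 to 6466 and 6318 (-1.37). The genes that rose were KRT4, which marks differentiated layers of the esophagus, from 283 and 232 to 1859.7 and 1965, and KRT80, from 228 and 242 to 1309 and 1398 (2.52). The list thus moved in both directions. KRT6C fell too (-2.12), but KRT6A and KRT6C are near-identical copies and their reads may have been split. Of 5 simple epithelial keratins only KRT7 was called, and it rose (1.73), while KRT8 gave 13015 and 11391 to 12658 and 12761 and KRT18 5495 and 5010.5 to 6113 and 6389, neither called.

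Hemidesmosomes anchor basal cells to the basement membrane, and desmosomes join keratinocytes to each other. Of 21 hemidesmosome and basement membrane genes 12 fell and 1 rose, with a median of -0.57. The laminin receptor subunits fell, ITGA6 from 1022 and 1023 to 415 and 425 (-1.28) and ITGB4 from 4092 and 3873 to 1632 and 1752 (-1.23). COL7A1, the collagen of anchoring fibrils, fell from 4031 and 3370.5 to 903 and 1011 (-1.95). Falls were also called for the laminin chain LAMA3 (-0.83), the linker DST (-1.54), the basement membrane genes COL4A1 (-1.69) and NID1 (-1.82), and the integrin chain ITGB1 (-1.33). Of 9 desmosome genes 6 fell and none rose, with a median of -1.14. The desmosomal cadherins DSG3 (2267 and 2572 to 989 and 993), DSC3 (2806 and 3171 to 1039.7 and 1176), DSG2 (-1.40) and DSC2 (-1.14) were among them, with desmoplakin (DSP, -1.16) and plakophilin 1 (PKP1, -0.96). Both lists kept these counts of falls with the length and GC trend removed.

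The cornified envelope list, genes of suprabasal and terminal differentiation, had only 9 of 31 members above the filter. Of these 5 rose and 2 fell. The envelope precursors EVPL (636 and 574 to 1149 and 1295, 1.01) and PPL (519 and 477 to 851 and 1039, 0.92) rose, as did the esophageal ammonium transporter RHCG (31.6 and 22.4 to 73.6 and 87.3) and cornifelin (CNFN, 0.71). The crosslinking enzyme TGM1 fell (-0.89), SPRR1B fell from 7.03 and 17.2 to 1.99 and 4.44, and filaggrin (FLG), at 219.8 and 233 and 206 and 235, did not pass the test and its groups overlapped. SPRR1B held few reads, and without siTP63 replicate 1 none of the 9 was called down. Among 13 S100 calcium-binding protein genes 5 rose and 4 fell, but 3 rose and 6 fell with the length and GC trend removed. S100A2, a known p63 target, fell from 27621 and 26068 to 9026 and 7811 (-1.68), and S100A9 fell from 349 and 349 to 98.9 and 69.5 (-2.06). S100A8 (-2.82) and S100A3 (-2.86) also fell from low levels, whereas S100A10, the annexin A2 partner, rose from 2361 and 2306 to 6832 and 6790.2 (1.54) and S100P rose by 1.15. Of 7 clade B serpins, 3 rose and 3 fell, SERPINB6 from 14.9 and 22.4 to 105 and 130.2 (2.61) and SERPINB13 from 757 and 806 to 316 and 401 (-1.13) among them.

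Of 26 transcription factors of squamous cells, 10 fell and 6 rose, with a median of -0.06. SOX15 fell from 249 and 245 to 47.8 and 38.5 (-2.50). BNC1, basonuclin of basal keratinocytes, fell from 73.0 and 81.0 to 13.9 and 20.7 (-2.11), and the ESCC lineage factor SOX2 fell from 3181 and 3393 to 2144 and 2072 (-0.64). KLF5 (-0.65) and PRDM1 (-1.33) fell as well. The epithelial repressors OVOL1 (0.79) and OVOL2 (182 and 175 to 402 and 429, 1.21) and the homeobox gene DLX5 (185 and 187 to 433 and 436, 1.22) rose. TFAP2A, at -0.41, was below the fold-change limit. The number of factors that rose dropped from 6 to 3 without siCont replicate 2 or without siTP63 replicate 2.

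**Figure D3:**
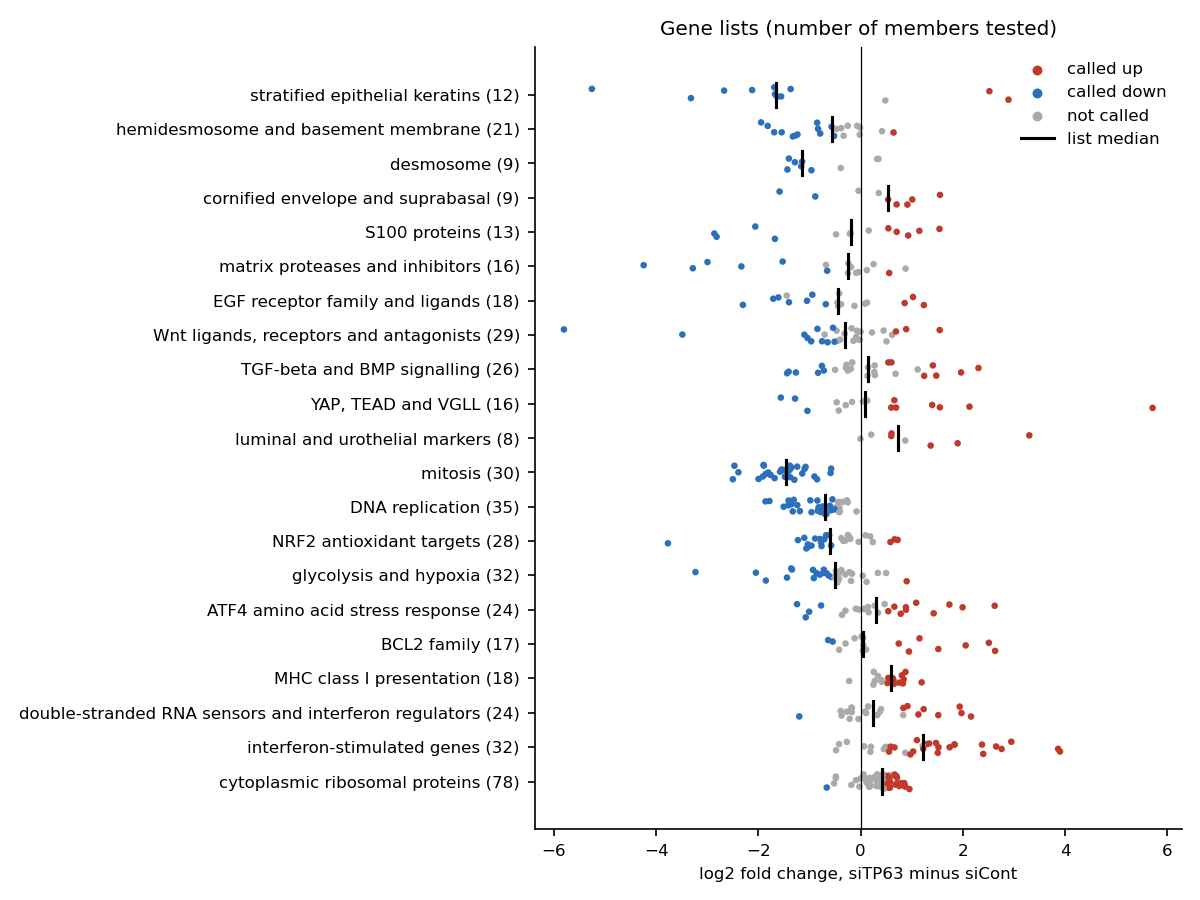
Log2 fold change, siTP63 minus siCont, of each tested member (points) of 21 gene lists, with the number of members tested in parentheses and the list median as a black line. Red points were called up, blue points called down and grey points were not called, and all 30 mitosis genes are blue whereas no interferon-stimulated gene is.

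Genes of cell contact and matrix outside the hemidesmosome moved unevenly. Of 9 cadherins 3 fell and 2 rose. FAT1 fell from 1149.9 and 1234 to 473 and 506 (-1.28), and so did the planar polarity cadherin CELSR2 (-0.79). E-cadherin (CDH1), at 912 and 966 with siCont and 1000.5 and 919 with siTP63, overlapped between groups. Of 10 other integrins 2 fell, the collagen receptor chain ITGA2 from 591 and 618 to 98.2 and 117 (-2.49) and ITGA4 from 90.5 and 101 to 10.6 and 7.40 (-3.29), and ITGAE rose by 0.76. In the list of 16 matrix proteases and inhibitors 6 fell and 1 rose. The tissue plasminogen activator PLAT fell from 224 and 209 to 29.2 and 23.7 (-3.00) and its inhibitor SERPINE2 from 421 and 473 to 79.0 and 97.7 (-2.33). The gelatinase MMP2 went from 192 and 174 to 65.0 and 60.7 (-1.52). The interstitial collagenase MMP1 had 14.9 and 21.5 with siCont and no read in either siTP63 library. Against a floor of 3 reads per library, MMP1 was at least 5.67-fold lower. Of 11 mesenchymal genes 3 rose and 2 fell. SNAI2, a repressor of epithelial genes, fell from 202 and 208 to 31.8 and 35.5 (-2.57), the crosslinking enzyme LOX fell (-1.21), fibronectin (FN1) rose from 29.0 and 35.3 to 75.6 and 87.3 (1.32), and vimentin (VIM) gave 371 and 299.8 to 378 and 323 with overlapping groups. In the tight junction list of 15 genes, 5 rose and 4 fell, led by TJP3 (1.52) and CLDN4 (2083 and 1978 to 5003 and 5373, 1.35) among the rises, and without siCont replicate 2 the counts were 3 and 2.

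In the EGF receptor list, 7 of 18 genes fell and 3 rose. EGFR fell from 718 and 745 to 237 and 210.1 (-1.71) and so did 2 ligands of the family, NRG1 from 541 and 566 to 209 and 209 (-1.40) and EPGN (-1.61). ERBB2 rose from 5669 and 5076 to 10494 and 11382 (1.03), and ERBB3, at 0.09, was not called. DUSP6, a phosphatase that ERK signalling induces, fell from 172 and 222 to 36.5 and 41.4 (-2.30). In the list of 19 FGF and IGF signalling genes 4 rose and 6 fell. The receptor FGFR1 rose from 213 and 198 to 1020.4 and 1043 (2.32), while FGFR2 and FGFR3 were not called (0.05 and -0.25). The IGF-binding proteins parted, with IGFBP3 (30.8 and 24.1 to 147 and 185) and IGFBP5 (861 and 805 to 2721 and 2922) rising and IGFBP4 (3124 and 2960.5 to 1401 and 1413) falling. FGFBP1, a carrier that releases FGFs from the matrix, fell (-1.02).

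Among 29 Wnt ligands, receptors and antagonists 10 fell and 3 rose. Beside SOST and DKK3, the falls included the transcription factor LEF1 (217 and 268 to 125 and 101, -1.10), WNT10B (-1.04), WNT3 (-0.84) and the R-spondin receptor LGR4 (-0.97), and WNT4 rose from 9.67 and 6.89 to 26.5 and 25.2. Without siCont replicate 2 the count of falls was 6, and the rises numbered 1 without siCont replicate 2 or either siTP63 library. Of 26 TGF-beta and BMP genes 7 rose and 6 fell. The ligand TGFB1 fell from 420.2 and 369 to 158 and 169 (-1.26) and the receptor TGFBR1 from 332 and 312 to 105 and 133 (-1.44), as did BMP6 (-1.41). The ligand BMP4 rose from 61.5 and 43.1 to 206 and 203 (1.97), the inhibitory SMAD6 from 66.8 and 66.3 to 331 and 336 (2.31) and ID1, a classical BMP target, from 5775 and 5296 to 14842 and 14671 (1.42). Of 17 Notch genes 6 fell and 4 rose. The ligands JAG2 (2615 and 2388 to 1167 and 1312, -1.01) and JAG1 (-0.87), the receptor NOTCH1 (-0.56) and the targets HEY1 (-0.74) and NRARP (-0.86) fell, and HEYL rose (1.21), although 1 gene rose in place of 4 with the length and GC trend removed. Of 5 neurotrophin and nerve-related genes NGFR and the BDNF receptor NTRK2 (1474 and 1544 to 281 and 324, -2.32) fell, and BDNF rose from 17.6 and 10.3 to 43.8 and 47.4 (1.68), which was not called without siCont replicate 2.

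VGLL1 binds TEAD factors in place of YAP. In the YAP, TEAD and VGLL list 7 of 16 genes rose and 3 fell. Besides VGLL1, the YAP targets CYR61 (102 and 104 to 431 and 481, 2.13) and ANKRD1 (20.2 and 25.0 to 67.7 and 68.1, 1.55) rose and AXL fell (57.1 and 48.2 to 15.3 and 19.2, -1.56). Of the TEAD genes TEAD3 rose from 407 and 402 to 1032 and 1111 (1.40), and TEAD1 (-1.04) and TEAD2 (-1.28) fell. YAP1 and WWTR1 were not called (-0.29 and -0.17). Of 8 tested luminal and urothelial markers 5 rose and none fell, with a median of 0.74. UPK2, a urothelial plaque protein, rose from 5.27 and 5.17 to 70.3 and 51.8 (3.30) and the membrane mucin MUC1 from 46.6 and 45.7 to 164 and 186 (1.90). UPK1A (1.37), GRHL3 (0.61) and FOXA1 (689 and 664 to 975 and 1082, 0.60) also rose, while PPARG (0.21) and GATA3 (0.88) were not called. The count was 3 with the length and GC trend removed and with any of 3 libraries left out (siCont replicate 2 or either siTP63 replicate).

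Cells answer interferon, or foreign RNA sensed in the cytoplasm, by raising a shared set of genes whose promoters hold an interferon-stimulated response element (ISRE). In TE6, 22 of 32 tested interferon-stimulated genes rose with siTP63 and none fell, with a median of 1.22. IFI27 rose from 6461 and 5501 to 41831 and 33711 (2.65) and was the most abundant of them. ISG15 rose from 488 and 340.2 to 3251 and 3066 and IFIT1, which binds viral RNA ends, from 358 and 356 to 937 and 1108 (1.51). TRIM22, an antiviral ubiquitin ligase, rose from 4.40 and 4.31 to 75.6 and 78.4 (3.87), IFI44L from 126 and 123 to 678 and 645 (2.40) and RARRES3 from 24.6 and 12.9 to 131 and 123 (2.76). In each the groups were apart, as in every called gene. The rise was not shared by all members, since MX1 (42.2 and 26.7 to 40.5 and 53.3), OASL (310.3 and 326 to 336 and 331) and IFIT2 (280.4 and 301 to 173 and 250.1), chosen after their values were seen, were not called. Without siTP63 replicate 2, 1 member was called down.

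Of 24 sensors and regulators of this response 8 rose and 1 fell. IRF7 rose from 320.0 and 244 to 1181 and 1330.2 (2.16), IRF9, the DNA-binding subunit of the ISGF3 complex, from 747 and 597 to 2637 and 2624 (1.98) and its partner STAT2, picked after its value was seen, rose by 0.92. The RNA sensors DDX58 (227 and 232 to 821 and 950.0, 1.94), IFIH1 (1.13) and their relative DHX58 (1.52) rose, and the feedback inhibitor SOCS3 fell (-1.20). The interferon genes IFNB1, IFNL1, IFNL2, IFNL3 and IFNE were below the filter, with at most 5.31 (IFNL1) in any of the 4 libraries. In the MHC class I list 11 of 18 genes rose and none fell, the immunoproteasome subunit PSMB9 from 141 and 139 to 335 and 308 (1.20) among them, and 6 rose with the length and GC trend removed. HLA genes are similar to each other, and their reads may have been divided between them.

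The ISRE core, GAAA followed by 2 bases of any kind and a second GAAA, was searched on both strands in RefSeq promoters of 300 bases (250 before to 50 after each start, GRCh38.p14). It lay in 3.65% of all 27305 promoters in that table. A promoter was matched for 79.3% of tested genes and 71.9% of the interferon-stimulated list, so that shares over gene sets were not compared with other genes. Of the matched list members, 17 of 23 held the core, and 12 of the 17 that rose did, so matches were not limited to genes that rose. Stretches upstream of the start are shown for genes of the list that rose and hold at least 2 matches close together (IFI44L, with 2 matches further apart, is left out), written 5′ to 3′ along the gene with the matched letters in capitals. TTTC in place of GAAA is the same core read on the other strand, and adjoining matches may share bases.
IFI6 promoter, chr1:27672266-27672358, minus strand: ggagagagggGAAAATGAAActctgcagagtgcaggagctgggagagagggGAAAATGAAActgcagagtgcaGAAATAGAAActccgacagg
ISG15 promoter, chr1:1013374-1013409, plus strand: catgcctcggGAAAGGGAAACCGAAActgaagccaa
IFIT1 promoter, chr10:89392497-89392539, plus strand: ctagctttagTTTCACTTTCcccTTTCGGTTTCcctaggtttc
IFIT3 promoter, chr10:89327831-89327894, plus strand: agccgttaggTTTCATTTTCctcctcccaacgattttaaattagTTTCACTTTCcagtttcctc
IFITM3 promoter, chr11:320876-320922, minus strand: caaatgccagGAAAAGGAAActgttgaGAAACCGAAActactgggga
IFI27 promoter, chr14:94110618-94110660, plus strand: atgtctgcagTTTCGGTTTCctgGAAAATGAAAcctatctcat
BST2 promoter, chr19:17405735-17405770, minus strand: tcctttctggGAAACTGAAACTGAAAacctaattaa
IFI6 held 3 separate matches, whereas OAS1, HERC6, IFI35, SAMD9L, PARP9 and DTX3L, which rose too, held none in the 250 bases before the start. A match is a run of letters and not a measured binding site.

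**Figure D4:**
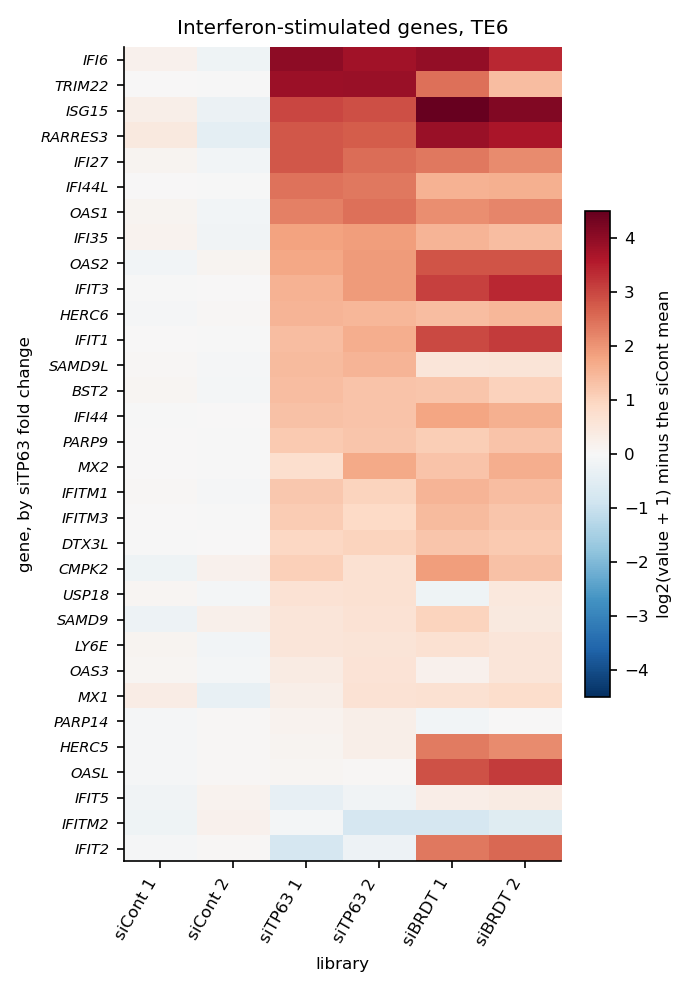
Heat map of the 32 tested interferon-stimulated genes (rows, ordered by siTP63 fold change) in the 6 TE6 libraries (columns), coloured by log2(value + 1) minus the mean of the siCont libraries. Most rows are red in both siTP63 libraries and, to a different degree, in both siBRDT libraries.

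The mitosis list fell as a whole, and other lists of proliferation did so in part. All 30 mitosis genes tested were called down, with a median of -1.46, against 20.6% of all genes tested. TOP2A, the topoisomerase of condensing chromosomes, fell from 6206 and 6949 to 1181 and 1327 (-2.39), CENPF, a kinetochore protein, from 2454 and 2546 to 435 and 448 (-2.50) and the proliferation marker MKI67 from 1830.3 and 1808 to 667 and 672 (-1.44). CCNB1 (-1.35), CCNA2 (-2.0) and PRC1 (-2.47) fell in both siTP63 libraries. The count was 30 of 30 under every alternative that used this list. Of 35 DNA replication genes 24 fell and none rose, with a median of -0.70, MCM10 from 584 and 657 to 177 and 163 (-1.86), POLA1 (-1.78) and RRM1 from 2592 and 2690.0 to 989.9 and 874 (-1.50) among them, whereas MCM3, at -0.41, was below the limit. In bulk RNA fewer cycling cells and less of these RNAs per cell cannot be told apart. Of 19 G1 regulators 6 fell and 1 rose. The kinases CDK6 (622 and 687 to 177 and 189, -1.83) and CDK2 (-1.38) and the brake RB1 (312 and 379 to 123 and 101, -1.62) fell, the inhibitor CDKN1C rose from 83.5 and 92.2 to 334 and 379 (2.01), and CCND1, at 9402 and 9188 with siCont and 9122 and 9615 with siTP63, was not called. Of 26 clustered histone genes tested 11 fell. Most of them held few reads, their copies are near-identical, and the counts were 4 to 8 with a control library or siTP63 replicate 2 left out and 5 by DESeq2.

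In the BCL2 family 7 of 17 genes rose and 2 fell, and the rises lay on both sides of the death decision. The survival gene BCL2L1 rose from 788 and 718 to 3044 and 3229 (2.06), and the pro-apoptotic genes BMF (119.6 and 103 to 665 and 727, 2.63), BBC3 (73.8 and 54.3 to 195 and 173, 1.52) and BIK (1.15) rose too. MCL1, another survival gene, fell from 2382 and 2535 to 1645 and 1721 (-0.55). In the list of 24 genes of the ATF4 response to amino acid shortage, 10 rose and 4 fell. ATF4 rose from 3399 and 3196 to 11061 and 10945 (1.74), its target CHAC1 from 81.8 and 61.2 to 439 and 444 (2.63), NUPR1 from 344 and 258 to 1273 and 1113 (2.0) and the serine synthesis enzyme PHGDH from 3706 and 3331 to 9281 and 9674 (1.43), whereas the amino acid transporter SLC38A2 fell (-1.24). The unfolded protein response list was even, with 4 up and 4 down of 21.

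Among 28 NRF2 antioxidant genes 15 fell and 3 rose, with a median of -0.60. Beside ALDH3A1, the glutathione synthesis subunits GCLC (10066 and 10378 to 4297 and 4446, -1.23) and GCLM (-1.03), the reductase GSR (-1.10) and the factor NFE2L2 itself (1185 and 1264 to 652 and 527, -1.06) fell, while NQO1 (0.24) and KEAP1 (0.19) were not called. None of the 3 rises was called with the length and GC trend removed. Of 32 glycolysis and hypoxia genes 15 fell and 1 rose. HIF1A fell from 4726 and 5178 to 1326 and 1412 (-1.85), hexokinase 2 (HK2) from 759 and 767 to 182 and 185 (-2.05), lactate dehydrogenase A (LDHA) from 7084 and 7599.8 to 2779 and 2632 (-1.44) and the secreted hormone STC1 from 513 and 573 to 59.0 and 54.7 (-3.23). Of 78 cytoplasmic ribosomal protein genes 24 rose and 1 fell, with a median of 0.41. RPL28 rose from 14768 and 13777 to 27805 and 27529 (0.96), but the count of rises was 13 without siTP63 replicate 1, 39 without siTP63 replicate 2 and 15 with the length and GC trend removed.

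Other lists held fewer calls or no clear majority. Of 30 genes of cholesterol and fatty acid synthesis 6 fell and 2 rose, of 24 collagen chains 6 fell and 4 rose, of 16 immediate early genes 5 fell and 3 rose, and of 17 cytokines and chemokines 3 fell and 3 rose, with 1 rise without siTP63 replicate 2 or with the length and GC trend removed. The falls numbered 3 for collagen chains without siCont replicate 1 or siTP63 replicate 1, and 3 for immediate early genes without siCont replicate 2 or siTP63 replicate 1. Markers of cells that a squamous cancer line should lack were checked as well. Of 10 leukocyte markers only CD68, a lysosomal protein gene of many cell types, passed the filter, and it fell from 402 and 414 to 102 and 69.5 (-2.26). The defining leukocyte genes PTPRC, CD3E, CD3D and MS4A1 had 0 reads in all 4 libraries. Of 8 endothelial markers only VWF was tested (65.9 and 45.7 to 90.2 and 109.5, 0.85), and it was not called without siCont replicate 2 or siTP63 replicate 2, while CDH5 and EMCN were at 0 throughout. Of 10 fibroblast markers 3 were tested, COL1A1, COL3A1 and LUM, and none was called. The 10 summed to 361 and 317 with siCont and 318 and 352 with siTP63, although DCN, FAP and DPT were at 0. Of 14 columnar and glandular markers 4 were tested and 2 rose, GATA6 from 130.1 and 109 to 207 and 286 (1.03) among them.

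The siBRDT libraries of the same table allowed a direct test of siTP63 against another knockdown that uses no control library. With siTP63, 1902 genes were lower (14.3%) and 1882 higher (14.1%) than with siBRDT. KRT14 was at 77.6 and 88.8 with siTP63 and 1189 and 1134 with siBRDT (difference -3.79 ± 0.12, SE, adjusted p = 8.6e-10 by limma), and FAT2 was at 29.9 and 25.2 against 271 and 318 (-3.37). S100A9 was at 98.9 and 69.5 against 869 and 865 (-3.37), TPRG1 differed by -3.33 and SOST by -3.31. Among called genes with a mean of at least 100, these were the 5 furthest below siBRDT. The 5 furthest above were IGFBP5 (2721 and 2922 against 215 and 297, 3.47), BMF (665 and 727 against 50.7 and 84.8, 3.39), the acid sphingomyelinase gene SMPD1 (3.14), AQP4 (3.04) and DEGS2 (3.02). PTHLH, a parathyroid hormone-like peptide gene, did not pass the test between the knockdowns (0.14, adjusted p = 0.35 by limma). It was at 935 and 980.2 with siCont, 354 and 334 with siTP63 and 309 and 314 with siBRDT.

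Interferon-stimulated genes were also high with siBRDT. IFI6 was at 6742 and 4628 with siBRDT and did not pass the test against siTP63 (0.23, adjusted p = 0.3 by limma), ISG15 was higher with siBRDT at 10675 and 7269 (siTP63 minus siBRDT -1.48), and IFI44L was higher with siTP63 (0.82). Against the shared siCont libraries, the median of the 32 genes was 1.22 with siTP63 and 1.46 with siBRDT, and the median of the 30 mitosis genes was -1.46 and -0.53. These pairs share their controls and are given side by side only. Among genes picked from the lists and not by size, SOX15 (-2.40), SNAI2 (-2.49) and COL7A1 (-1.86) were lower with siTP63 than with siBRDT. ITGB1 was higher with siTP63 (0.78), and DST was not called (-0.13). The first siBRDT library (replicate 1) had 20995 genes above 0, against 16458 to 17569 in the other 5 libraries. Without siTP63 replicate 2 the genes higher with siTP63 numbered 1120 in place of 1882.

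TP63 was also knocked down in KYSE180 and KYSE150, each with 2 siCont and 2 siTP63 libraries in a table normalised on its own. Only fold changes made within a table were therefore compared. Which TP63 siRNA each line received is not given in the sources used here, so the lines may differ in siRNA as well. The fold change differed at an adjusted p under 0.05 by limma in 7028 of 12780 genes tested in TE6 and KYSE180 (55%). Against KYSE150 it differed in 449 of 11645 genes tested in both lines (3.86%). Each share depends on SEs as well as fold changes, so the smaller share is not a measure of likeness. TP63 went from 2573 and 3035 to 794 and 925 in KYSE180 (-1.70) and from 695 and 729 to 170.3 and 114 in KYSE150 (-2.34). Its fall was larger in TE6, with a difference of -2.74 ± 0.19 against KYSE180 and -2.10 ± 0.28 against KYSE150 (SE, adjusted p = 4.0e-08 and 0.0038 by limma). Whether this larger fall has a part in the differences of other genes was not tested. The KYSE150 count depended on single libraries. It was lower without any 1 of the TE6 siCont or siTP63 libraries, and without KYSE150 siCont replicate 1. Without KYSE150 siTP63 replicate 2 it was higher. The TE6 siBRDT libraries were not left out of that fit.

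Among genes that differed and had a mean of at least 100, those whose fold change lay furthest below that in KYSE180 were PI15 (difference -5.34 ± 0.59), NGFR, SOST, the kinase DCLK1 and BLACAT1. NGFR went from 51.9 and 64.7 to 53.7 and 59.6 in KYSE180 (-0.03), and SOST changed by -1.62 there. The genes furthest above KYSE180 by that rule were the muscle troponin TNNT3 (0.62 in TE6, -3.67 in KYSE180), the activin antagonist follistatin (FST, -0.72 and -4.09), SNCG (-0.50 and -3.58), CCDC85B (0.36 and -2.57) and ZNF812 (-0.42 and -3.32). KRT14 fell more in TE6 (-2.50 ± 0.18), and KRT5 did as well (-3.32 in TE6, -0.86 in KYSE180, adjusted p of the difference = 1.0e-07 by limma). The rise of VGLL1 was not shown to differ (5.71 and 5.35, adjusted p = 0.53 by limma). Picked from the gene lists and not by that rule, the desmosome genes DSP (-1.16 and 0.41) and DSG2 (-1.40 and 0.28) differed between the lines. The integrin chain ITGB1 (-1.33 and 1.25) and HIF1A (-1.85 and 1.07), picked likewise, differed too. Such a difference was found in 55% of all genes tested in both lines. List medians in KYSE180 were 1.75 for interferon-stimulated genes, -1.04 for mitosis, 0.19 for desmosome genes and -1.31 for ribosomal proteins, beside 1.22, -1.46, -1.14 and 0.41 in TE6. In KYSE150 they were 0.83 over the 22 interferon-stimulated genes tested there, -0.88, 0.04 and 0.01. These medians were not tested against each other.

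By the same rule, the fold change in TE6 was furthest above that in KYSE150 for IFI6, KIAA1324, VGLL1, PPME1 and ALG1L, and furthest below it for FAT2, NGFR, ALDH3A1, S100A9 and the tryptophan-degrading enzyme KYNU. IFI6 went from 29.7 and 21.2 to 15.8 and 31.9 in KYSE150 (-0.15), and the difference was 4.05 ± 0.44 (SE, adjusted p = 0.0013 by limma). FAT2 went from 1016 and 715 to 535 and 555 (-0.64, difference -4.65 ± 0.28). ALDH3A1 gave 56.4 and 24.7 to 38.2 and 57.2 (0.31), with overlapping groups. S100A9 changed by 2.64 in KYSE150 and -2.06 in TE6, so the directions were opposite, as they were for KYNU (2.89 and -0.78). KRT14 fell by a smaller amount in KYSE150 (-3.31, adjusted p of the difference = 0.012 by limma).

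**Figure D5:**
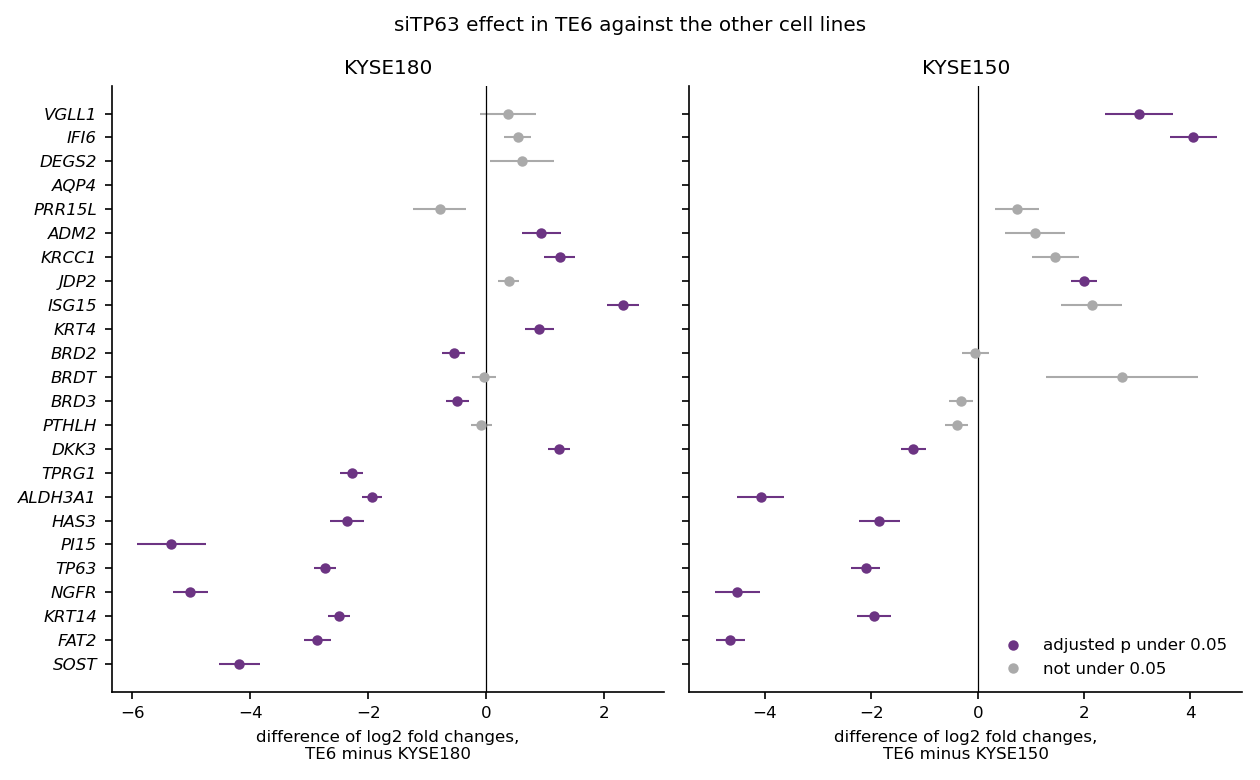
Difference of the siTP63 log2 fold change, TE6 minus KYSE180 (left) and TE6 minus KYSE150 (right), for TP63, BRDT, BRD2, BRD3, PTHLH and the 10 largest falls and rises (y axis), with bars of 1 SE. Purple points have an adjusted p under 0.05, and genes below the filter in the other line have no point. NGFR lies at -5.02 on the left and -4.52 on the right.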

How the data were processed

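Total RNA of siRNA-transfected TE6 cells was isolated with QIAzol and made into TruSeq RNA v2 libraries. Per the submitters' processing notes, the authors used STAR 2.6.0, hg38, HTSeq 0.11.2 and DESeq2 1.24.0. The deposited values were a signal, namely read counts per gene divided by a size factor for each library. The annotation, strand setting and counting options are not given in the sources used here. All values came out as whole reads within 0.01 (100% in each library), and these recovered reads gave the depths and served the count tests.

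Values were fitted as log2(value + 1) with limma 3.58.1 in R 4.3.3 (lmFit and eBayes with a mean trend), all 6 TE6 libraries in 1 fit, over genes with a mean of at least 10. Adjusted p-values are Benjamini-Hochberg and two-sided, SE is limma's, and fold changes of low genes are understated by the pseudocount. The fit with KYSE180 or KYSE150 tested the difference of fold changes between tables that were normalised separately. Alternatives were a pseudocount of 0.1, no filter, upper-quartile rescaling, a replicate block, edgeR 4.0.16, DESeq2 1.42.0, the siCont and siTP63 libraries only, removal of a length and GC trend (splines with 4 degrees of freedom), and each library left out. For the comparison of siTP63 with siCont, leaving out each siBRDT library was added after seeing the data. The fits with KYSE180 or KYSE150 always kept both siBRDT libraries. The procedure was tested on simulated data.

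Of 26485 symbols, 24500 matched GENCODE 44 for length and GC content, 1339 of them by a RefSeq synonym. Lists describe genes by count and median. The gene lists and members were chosen with earlier results of these data known. Genes named include TP63, BRDT, BRD2, BRD3, FAT2, KRT14 and PTHLH, which the study names. VGLL1 and SOST were listed with them, although the study does not name them. Also named are the 10 largest rises and falls with a mean of at least 100 and no overlap between the groups. From each list come the first 3 tested members and up to 6 called members with the largest change. Each contrast adds the 5 largest differences each way. List members outside that rule were also given against siBRDT (IFI44L, SOX15, SNAI2, COL7A1, ITGB1, DST) and against KYSE180 (KRT5, DSP, DSG2, ITGB1, HIF1A). Exceptions are stated, and some genes that the rule names are not reported here.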

Additional observations from a re-analysis of the deposited data

Results flagged for a closer look

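The effect of siTP63 differed between TE6 and another line, by limma's test of the difference of log2 fold changes (adjusted p under 0.05), for 16 of the 23 genes tested in TE6 and KYSE180 and for 10 of the 18 tested in TE6 and KYSE150. Over all genes tested the share was 55% against KYSE180 and 3.86% against KYSE150, and the latter count was 61 in place of 449 with a replicate block. Most of these genes were chosen as the largest changes in TE6, which favours a difference from another line, so nothing is read from their counts. All groups held 2 libraries, and the tables were normalised separately. The knockdown of TP63 itself differed between the lines, and its part in these differences was not tested.

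Against KYSE180, the change was lower in TE6 by -2.74 (log2, TE6 minus KYSE180) for TP63, -4.19 for SOST, -2.87 for FAT2 and -2.50 for KRT14. It was -5.02 for NGFR, the neurotrophin receptor gene, and -5.34 for PI15, the secreted protease inhibitor gene, which changed by -0.03 and 1.32 in KYSE180. HAS3, ALDH3A1 and TPRG1 gave -2.36, -1.94 and -2.29. The BET genes BRD2 and BRD3 gave -0.55 and -0.49, although neither was called in TE6. Among genes that rose in TE6 the difference was 0.93 for ADM2, 1.241 for KRCC1, 2.32 for ISG15 and 0.89 for KRT4. DKK3 fell less in TE6 than in KYSE180, with a difference of 1.23.

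Against KYSE150, the difference was -2.10 for TP63, -4.65 for FAT2, -1.95 for KRT14, -4.52 for NGFR, -1.85 for HAS3, -4.08 for ALDH3A1 and -1.21 for DKK3. It was 3.03 for VGLL1, 4.05 for IFI6 and 2.0 for JDP2.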

How the results depend on the processing

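The knockdown counts and the TP63 fold change held up under most alternatives. Of 90 alternative values of the 7 main results 81 stayed close to the reported value and 9 moved, and of 288 alternative values of single genes 287 kept their side. The exception was BRDT, which turned from -0.09 to 0.058 with the length and GC trend removed and passed the test in neither fit. Of 1118 alternative list counts 1056 stayed within 1.5 times. The genes higher with siTP63 than with siBRDT numbered 1120 to 2284 when 1 library was left out, lowest without siTP63 replicate 2. The genes whose effect differed between TE6 and KYSE150 numbered 64 to 3000 when 1 library was left out, highest without KYSE150 siTP63 replicate 2, beside 1250 with the length and GC trend removed. With a replicate block that count was 61. Replicate numbers were not shown to pair the samples, as same-numbered TE6 libraries deviated together with r of -0.084 to 0.028 across genes. With the block 2428 genes rose and 2749 fell in TE6. By edgeR 2518 rose and 2785 fell, and by DESeq2 2188 rose and 2396 fell. With 2 libraries a group, leaving 1 out assumes that the lone library varies like the others. Genes with few reads in siTP63 replicate 2 (7582089 reads) were measured least precisely.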
